A study of Drosophila melanogaster with 28 samples.

Results

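The genes described here encode the actomyosin cortex of the early *Drosophila* embryo: the 2 cytoplasmic actins *Act5C* and *Act42A*, the non-muscle myosin II heavy chain *zip* (*zipper*) and its regulatory light chain *sqh* (*spaghetti squash*), anillin (*scra*, *scraps*), the septin *pnut* (*peanut*) and the formin *dia* (*diaphanous*). They were chosen by name, and all 7 were listed among the 16768 fly genes common to the 3 deposited tables. The study asked which mRNAs are bound by ME31B, a DEAD-box RNA helicase that acts as a translational repressor, and by PABP, the cytoplasmic poly(A)-binding protein, while the embryo passes from maternal to zygotic control. In RNA immunoprecipitation and sequencing (RIP-seq), the RNA that comes down with a protein, the immunoprecipitate (IP), is set against the RNA of the starting lysate, the input.

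The 28 libraries (15 inputs and 13 IPs) fall into 6 sets. From *eGFP-me31B;png50* embryos there was an ME31B IP with its input at 0–1 hr after egg laying, and from *png50* embryos, which carry a weak hypomorphic allele of the *pan gu* kinase gene, inputs at 0–1 and 2–3 hr. S2 cells, a cultured macrophage-like line of embryonic origin, gave an ME31B IP and input after transient transfection with an eGFP-ME31B plasmid, and a PABP IP and input without transfection. Embryos of the *eGFP-ME31B* line, a trap line that makes the tagged protein, gave an ME31B IP and an input in each of 5 collections, each 1 hr long, up to 4–5 hr. *w1118* embryos gave a PABP IP and an input at the same 5 ages. ME31B was precipitated through its GFP tag and PABP with synthetic antibody fragments, from different lysates, so the strain, the tag and the antibody cannot be told apart when the 2 proteins are set side by side. In transfected cells the tagged protein was expressed from a plasmid, and a collection pools whole embryos, in which fewer cells of a type and less RNA per cell cannot be told apart. There was 1 library per condition, so no difference below has a replicate check and no p-value was computed.

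Non-muscle myosin II forms bipolar filaments that pull on actin. Its activity is switched on by phosphorylation of the regulatory light chain. Formins nucleate and elongate unbranched actin filaments. Anillin binds actin, myosin and septins and links the ring to the membrane. In the fly embryo these proteins are supplied by the mother and drive the furrows of the syncytial nuclear cycles. They then drive cellularization, when membrane grows in around each nucleus, and the movements of gastrulation.

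The myosin heavy chain gene *zip* (FBgn0287873) lies on chromosome arm 2R from 24990570 to 25011965 on the minus strand, with a median annotated transcript of 6362 nt. Its light chain gene *sqh* (FBgn0003514) lies on the X chromosome from 6223061 to 6225140 on the minus strand, with a median transcript of 1097 nt, the shortest of the set. *Act5C* (FBgn0000042) lies on the X chromosome from 5900861 to 5905399 on the plus strand (2252 nt), and *Act42A* (FBgn0000043) on 2R from 6013910 to 6015689 on the minus strand (1626 nt). The 2 actins encode nearly identical proteins, and how well reads could be divided between the 2 genes was not examined. The remaining members are *scra* (FBgn0261385) on 2R from 7590119 to 7595242 on the plus strand (4147 nt), *pnut* (FBgn0013726) on 2R from 8237271 to 8240297 on the plus strand (2736 nt) and *dia* (FBgn0011202) on 2L from 20758144 to 20768053 on the plus strand (4465 nt). Positions are on BDGP6 (dm6). All 7 are protein-coding and 0 of them overlap another annotated gene.

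Values are FPKM, fragments scaled to transcript length and to mapped reads, so that levels of different genes can be compared per length. Estimated depth was 9.86 to 16.36 M reads per library, and a member had an estimated 121 reads or more in every library, which puts counting error alone at no more than 0.13 on the log2 scale per library. The *w1118* inputs at 0–1 and 1–2 hr stood apart: summed fly FPKM was as low as 125101, against 1021830 or more from 2–3 hr on. *C. elegans* RNA, spiked into the samples, was almost absent from the *eGFP-me31B;png50* and transfected S2 libraries. Changes were therefore centred on the median gene, over genes with at least 0.5 FPKM in 1 or more inputs compared, and "at least 2-fold" below means 1 log2 unit or more from that median. Among 5 maternal germline markers (*bcd*, *nos*, *osk*, *gcl* and *pgc*), summed FPKM as deposited was 3530 at 0–1 hr and 154 at 4–5 hr in *eGFP-ME31B* embryos. In *w1118* embryos, whose 0–1 hr input stood apart, it was 953 and 51.4. The summed level of 4 muscle genes (*Mhc*, *Mlc2*, *up* and *Act88F*) at 4–5 hr was 25.4 FPKM in *eGFP-ME31B* and 223 FPKM in *w1118* embryos, and its part in the differences between these strains was not tested. The 6 hemocyte markers for S2 cells summed to 821 FPKM in transfected and 742 FPKM in untransfected S2 inputs, against 12.7 to 201 FPKM in the embryo inputs of *eGFP-ME31B* and *w1118*. Of them, *vkg*, *Cg25C*, *srp* and *Pxn* were higher in both S2 inputs than in every embryo input, although *Pxn* was at 8.42 FPKM in untransfected S2 cells and 6.68 FPKM in *eGFP-ME31B* embryos at 0–1 hr. *crq* went the other way against several embryo inputs, with 101 and 72.5 FPKM in transfected and untransfected S2 cells and up to 196 FPKM in *eGFP-ME31B* embryos, and *NimC1* was listed at 0 in S2 cells. Eggshell genes were at 0.221 FPKM or less in sum in every input.

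*Act5C* was the most abundant of the 7 by FPKM in 27 of 28 libraries. In *eGFP-ME31B* inputs it had 883, 1038, 1211, 1189 and 1216 FPKM at the 5 ages in order. *Act42A* held rank 2 in all 13 embryo inputs, and had 133, 161, 215, 295 and 314 FPKM in the same libraries. Thus *Act5C* was listed at 6.63 times the level of *Act42A* at 0–1 hr and 3.87 times at 4–5 hr in *eGFP-ME31B* embryos, and at 5.46 and 3.48 times in *w1118* embryos. In both *png50* inputs the ratio was 6.76 (2–3 hr) and 7.27 (0–1 hr). In S2 cells it was 1.51 with and 1.62 without transfection, as *Act42A* reached 1189.6 and 1009 FPKM there.

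Of the 2 myosin II genes, the light chain was listed at higher FPKM than the heavy chain in every input. *sqh* had 99.2, 108, 134, 156 and 164 FPKM by age in *eGFP-ME31B* inputs. *zip* had 7.37, 6.62, 12.7, 32.9 and 45.8 FPKM, and held rank 6 or 7 of the 7 in all 13 embryo inputs. The ratio of light to heavy chain FPKM was 13.5 at 0–1 hr and 3.59 at 4–5 hr in *eGFP-ME31B* embryos, and 8.48 and 6.07 in *w1118* embryos. In *png50* embryos it was 12.1 at 2–3 hr and 5.52 at 0–1 hr, and in S2 cells 2.16 with and 3.20 without transfection.

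The septin *pnut* lay beside *sqh* in level, as the 2 genes shared ranks 3 and 4 in all embryo inputs. It had 93.0, 94.9, 139, 196 and 171 FPKM by age in *eGFP-ME31B* inputs. Anillin mRNA (*scra*) was lower, at 11.9, 15.4, 29.0, 45.3 and 60.2 FPKM. The formin *dia* had 21.4, 22.1, 30.6, 21.3 and 21.6 FPKM and showed the narrowest span of the 7 with *Act5C*. With 1 library per age, neighbouring ranks such as *sqh* and *pnut*, or *dia* and *scra* in the *eGFP-ME31B* input at 2–3 hr (30.6 and 29.0 FPKM), cannot be separated.

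The *w1118* inputs gave the same order at the top. From 0–1 to 4–5 hr, *Act5C* had 292, 123, 1144, 959 and 961 FPKM and *Act42A* 53.5, 28.3, 269, 374 and 276 FPKM. *sqh* had 33.7, 15.2, 153, 207 and 215 FPKM, and *pnut* 22.3, 9.03, 139, 175 and 118 FPKM. *scra* had 14.8, 6.92, 65.4, 47.8 and 56.5 FPKM. *dia* had 7.46, 2.28, 16.2, 18.4 and 12.4 FPKM. Every member had its lowest value at 1–2 hr, the library with the lowest summed FPKM.

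**Figure D1:**
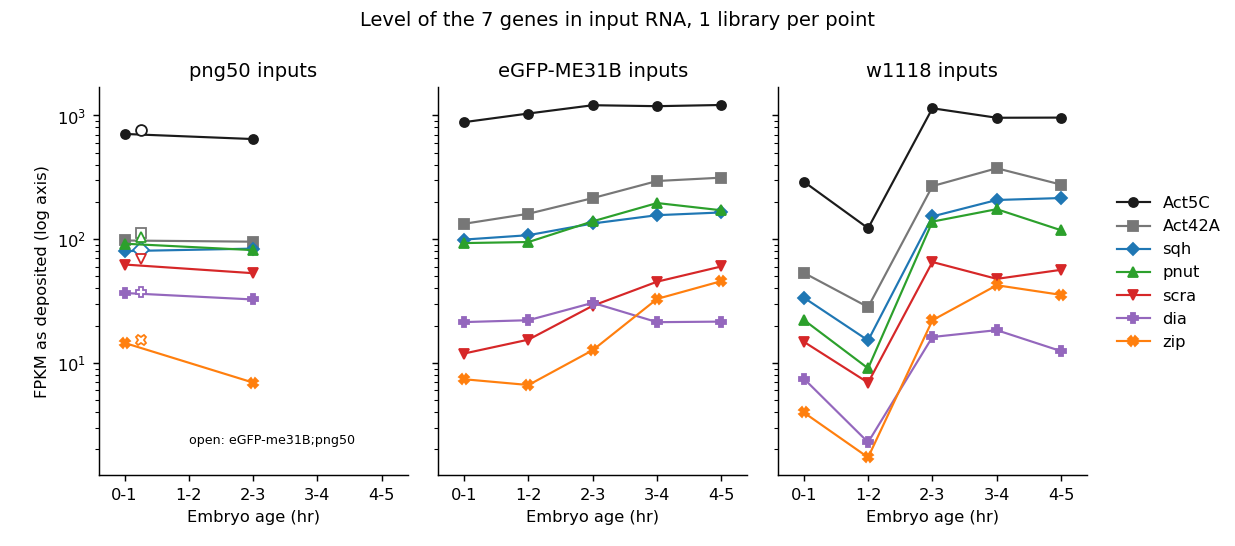
FPKM as deposited (log axis) of the 7 genes by embryo age in the inputs of *png50*, *eGFP-ME31B* and *w1118* embryos, with 1 library per point and open symbols for *eGFP-me31B;png50*. *Act5C* is the top line in each panel, and all 7 lines dip at 1–2 hr in *w1118*, where summed fly FPKM was also lowest.

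To ask how the mRNAs changed while maternal transcripts were cleared and the zygotic genome was switched on, each age was set against 0–1 hr of the same strain. In *eGFP-ME31B* embryos, 0 of 7 members were at least 2-fold higher at 1–2 hr (6.01% of 9250 genes), 1 at 2–3 hr (17.4%), 3 at 3–4 hr (27.9%) and 3 at 4–5 hr (30.8%). At that last age, 0 members were at least 2-fold lower, against 24.9% of genes. The 3 higher members at 3–4 and 4–5 hr were *zip*, *scra* and *Act42A*. *zip* was at −0.15, 0.70, 2.06 and 2.61 log2 units from 1–2 to 4–5 hr, which is 6.11-fold above its 0–1 hr level at the end. *scra* was at 0.37, 1.21, 1.84 and 2.32, or 4.99-fold. *Act42A* was at 0.27, 0.62, 1.07 and 1.23, while *pnut* (0.87), *sqh* (0.72), *Act5C* (0.45) and *dia* (0.00) stayed within 2-fold at 4–5 hr. Against a background of 30.8%, 3 of 7 does not set the group apart, and the percentiles of *zip* and *scra* at 4–5 hr were 82.6 and 80.7.

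In *w1118* embryos, the count of members at least 2-fold higher than at 0–1 hr was 0 at 1–2 hr (28.6% of 9747 genes), 2 at 2–3 hr (22.7%), 3 at 3–4 hr (30.1%) and 2 at 4–5 hr (32.5%), and 0 were at least 2-fold lower at 4–5 hr (29.3%). *zip* was again the highest member at 3–4 and 4–5 hr. Its FPKM was 3.97, 1.72, 22.1, 42.4 and 35.5 by age, and its centred change 0.15, 1.10, 1.73 and 1.68. The light chain *sqh* passed the 2-fold line at 4–5 hr (1.22), *Act42A* at 3–4 hr (1.15) and *pnut* at 2–3 hr (1.29) and 3–4 hr (1.32). Anillin mRNA was listed differently in the strains: *scra* was at 2.32 in *eGFP-ME31B* and 0.48 in *w1118* embryos at 4–5 hr, and the difference was not tested. *dia* was the only member below the median gene at 4–5 hr, at −0.72, with 12.4 FPKM.

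These *w1118* changes rest on the early inputs that stood apart. The median gene itself moved by −1.31, 1.34, 1.65 and 1.45 log2 units as deposited from 1–2 to 4–5 hr, against 0.08 or less in either direction in *eGFP-ME31B* embryos. Taken as deposited, 7 of 7 members were at least 2-fold higher at 2–3 and 3–4 hr, and 6 at 4–5 hr. Scaled to the worm RNA, 0 were at 2–3 and 4–5 hr and only *zip* was at 3–4 hr (1.10). With 2–3 hr as the baseline, which leaves the early inputs out, 2 of 7 members were at least 2-fold higher at 4–5 hr in *eGFP-ME31B* embryos, *zip* (1.85) and *scra* (1.06), a share near the 23.6% of all genes. In *w1118* embryos 0 of 7 were, against 26.2% of genes, and *zip* was at 0.55. Scaled to the worm RNA, the *eGFP-ME31B* changes from 0–1 to 4–5 hr were 1.40 for *zip* and 1.11 for *scra*, and the other 5 lay between −1.21 (*dia*) and 0.01 (*Act42A*).

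**Figure D2:**
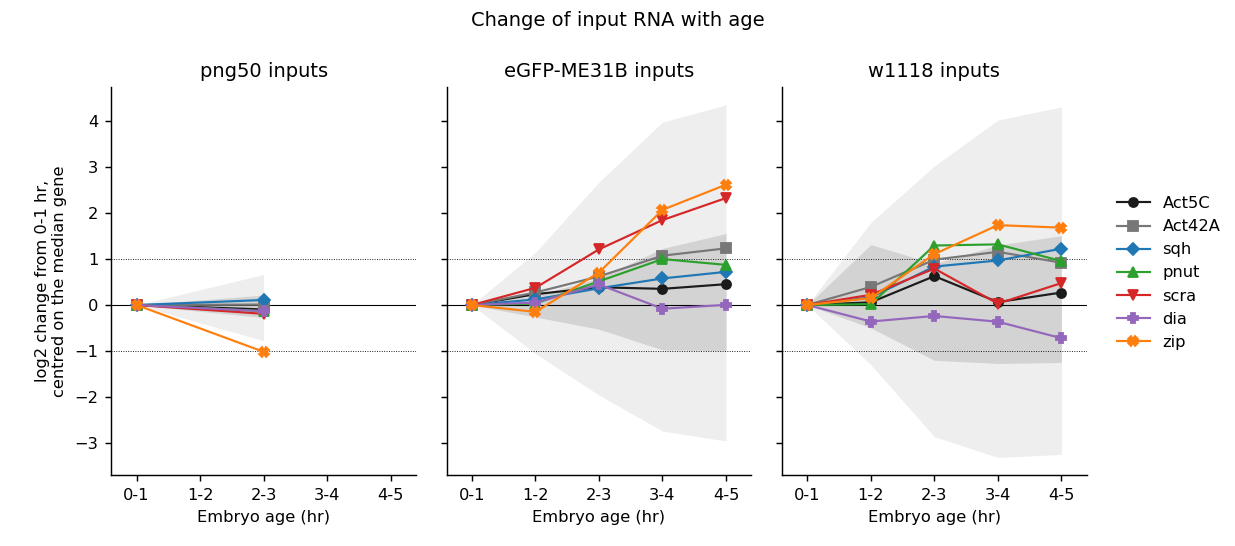
Log2 change of input FPKM from 0–1 hr, centred on the median gene, by age (dark grey, between the quartiles of genes; light grey, 5th to 95th percentile; dotted lines, 2-fold). *zip* ends highest in *eGFP-ME31B* (2.61) and *w1118* (1.68) embryos and is the lowest member in *png50* (−1.01).

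The *png50* inputs address what happens when the PNG kinase, which acts at egg activation, is impaired. From 0–1 to 2–3 hr 6 of 7 members lay between −0.19 (*scra*) and 0.11 (*sqh*), centred on the median gene. Scaled to the worm RNA, these 6 lay between −0.92 (*scra*) and −0.62 (*sqh*). *zip* was the exception, with 6.92 FPKM at 2–3 hr and 14.5 FPKM at 0–1 hr, a centred change of −1.01 at percentile 2.5 of 7120 genes. It was the 1 member at least 2-fold lower, where 2.65% of genes were, and with a pseudocount of 1 the change was −0.93. The same contrast gave 0.70 in *eGFP-ME31B* and 1.10 in *w1118* embryos. The zygotic markers *nullo*, *slam*, *zen* and 4 others summed to 48.5 FPKM in *png50* embryos at 2–3 hr and 40.6 FPKM at 0–1 hr. The 2–3 hr sum was 463 FPKM in *eGFP-ME31B* and 981 FPKM in *w1118* embryos. *Sry-alpha* made up 2.09, 296 and 577 FPKM of the 2–3 hr sums in *png50*, *eGFP-ME31B* and *w1118* embryos. *slam* in *png50* embryos was at 32.6 FPKM at 0–1 hr and 26.9 FPKM at 2–3 hr. The part of these markers in the difference was not tested.

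Set against *w1118* embryos of 2–3 hr, *png50* embryos had at least 2-fold lower levels of 4 members, where 26.3% of 8241 genes were that much lower. They were *zip* (−1.88, with 6.92 against 22.1 FPKM), *Act42A* (−1.71, 95.4 against 269 FPKM), *sqh* (−1.09, 83.9 against 153 FPKM) and *Act5C* (−1.05, 645 against 1144 FPKM). *pnut* was just inside the line at −0.99, *scra* was at −0.52 and *dia* at 0.78. As deposited, 2 members (*zip* and *Act42A*) stayed beyond 2-fold, and the tables were quantified separately. The 4 muscle genes summed at 2–3 hr to 0.346 FPKM in *png50*, 2.36 FPKM in *eGFP-ME31B* and 24.9 FPKM in *w1118* embryos. Their part in these differences was not tested. Against *eGFP-ME31B* embryos of 2–3 hr, *Act42A* was at −1.03, *scra* at 1.01 and the other 5 within 2-fold. These 1 lower and 1 higher of 7 are near the shares of all genes, 17.2% lower and 18% higher.

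At 0–1 hr, *eGFP-me31B;png50* embryos had more *scra* mRNA than *eGFP-ME31B* embryos, with 69.8 against 11.9 FPKM. The centred difference was 2.58, a 5.98-fold excess at percentile 98.96. *zip* was also at least 2-fold higher (1.09, 15.4 against 7.37 FPKM), which makes 2 members where 8.76% of 7294 genes were. *dia* was at 0.84 and the other 4 lay between −0.25 and 0.19. *png50* embryos without the tag had a like level of *scra*, 62.4 FPKM at 0–1 hr, and the 2 *png50* backgrounds differed by 0.14 or less in every member. Against *w1118* embryos of 0–1 hr, *scra* in *png50* was at 0.56 and *zip* at 0.33, both within 2-fold.

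S2 cells held more actin and non-muscle myosin mRNA than *w1118* embryos of 0–1 and 4–5 hr, relative to the median gene. Against the *w1118* input at 0–1 hr, 4 members were at least 2-fold higher in the S2 input, where 32.3% of 8123 genes were. *zip* had 82.7 against 3.97 FPKM (3.73), *Act42A* 1009 against 53.5 FPKM (3.62), *sqh* 265 against 33.7 FPKM (2.35) and *Act5C* 1629.8 against 292 FPKM (1.86). The remaining members were near the median gene: *pnut* was at 0.45, *dia* at 0.25 and *scra* at −0.15. Against *w1118* at 4–5 hr the same 4 were at least 2-fold higher, at 1.98, 2.63, 1.07 and 1.53 in that order, where 33.2% of genes were. Without centring, *sqh* (0.30) and *Act5C* (0.76) were within 2-fold there. The *w1118* input at 0–1 hr was among those that stood apart. No centred comparison with *eGFP-ME31B* embryos was made. Their input at 4–5 hr had 1216 FPKM of *Act5C*, 314 FPKM of *Act42A*, 164 FPKM of *sqh* and 45.8 FPKM of *zip*. All 7 were within 2-fold between transfected and untransfected S2 inputs, from −0.27 (*sqh*) to 0.46 (*scra*), where 2.78% of genes were at least 2-fold higher and 5.42% lower.

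Binding was read as the log2 ratio of IP to input FPKM. Only genes that exceeded 0.5 FPKM throughout a set of libraries were kept, and the median of those genes was subtracted, so that 0 is the binding of the median gene. No mock or control IP was analysed here. The study reported that by RT-qPCR even *smg*, among its most poorly bound mRNAs, was enriched over control IPs. It also reported that ME31B protein fell sharply over these ages. Centred values therefore place a gene among other genes of the same age and do not give the amount bound. In *eGFP-ME31B* embryos, 4 of 7 members were bound by ME31B at least 2-fold less than the median gene at 0–1 hr, where 18.9% of 6699 genes were. The count was 6 at 1–2 hr (24.9%), 5 at 2–3 hr (28%), 5 at 3–4 hr (20.6%) and 5 at 4–5 hr (20.1%). The median member was at −1.84 at 0–1 hr and at −1.07 at 4–5 hr. Long transcripts were bound less at 0–1 hr, with a Spearman correlation of −0.59 with annotated transcript length across genes. Centred on genes of like length, 3 members were at least 2-fold lower at 0–1 hr, where 12.4% of genes were. They were *pnut* (−3.04), *dia* (−1.05) and *Act42A* (−1.01). The counts given for later ages were not centred in this way.

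*pnut* was the least bound of the 7 by ME31B in the first 3 hr. Its IP and input had 10.2 and 93.0 FPKM at 0–1 hr, 9.01 and 94.9 FPKM at 1–2 hr and 17.9 and 139 FPKM at 2–3 hr. It had 64.8 and 196 FPKM at 3–4 hr and 134 and 171 FPKM at 4–5 hr. Binding of this septin mRNA was thus −3.33, −3.45, −3.16, −1.96 and −0.63, at percentile 0.9 at 0–1 hr and 29.8 at 4–5 hr. The myosin heavy chain mRNA was lowest at the last age instead. *zip* had 1.95, 1.41, 3.43, 5.74 and 5.99 FPKM in the IPs against inputs of 7.37, 6.62, 12.7, 32.9 and 45.8 FPKM. Its binding was −2.06, −2.29, −2.08, −2.88 and −3.22, at percentile 0.4 at 4–5 hr. Centred on genes of like length, *zip* was at −1.68 at 4–5 hr and *Act42A* at −2.63.

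*sqh* was the only member above the median gene at any age. Its IP had 185 FPKM and its input 99.2 FPKM at 0–1 hr, and the values were 189 and 108 FPKM at 1–2 hr, 94.1 and 134 FPKM at 2–3 hr, 106 and 156 FPKM at 3–4 hr and 100.1 and 164 FPKM at 4–5 hr. Its binding was 0.75 at both early ages, then −0.70, −0.92 and −0.996. The light chain mRNA was thus above the heavy chain mRNA in ME31B binding at all 5 ages. Centred on genes of like length, *sqh* and *zip* were at 0.20 and −0.46 at 0–1 hr and at −1.60 and −1.68 at 4–5 hr. In the same terms, *sqh* was at −1.11 and −1.42 and *zip* at −1.08 and −1.67 at 2–3 and 3–4 hr.

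The actins were closer to the median gene at first. *Act42A* was at −0.73 and −1.19 at the 2 early ages and at −2.98, −2.72 and −2.25 later, with 88.6 FPKM in the IP at 0–1 hr and 31.0 FPKM at 2–3 hr while its input was 133 and 215 FPKM. *Act5C*, which the study also used to check the pull-downs by RT-qPCR, was at −0.81, −1.31, −1.81, −1.05 and −1.07. Anillin and formin mRNAs had like values: *scra* was at −1.84, −2.19, −0.99, −1.01 and −1.29, and *dia* at −2.08, −1.79, −1.07, −0.98 and −1.04. From 2–3 hr on, centred on genes of like length, *scra* was at −0.57, −0.33 and −0.48. In the same terms *dia* was at −0.50, −0.22 and −0.15, so both lay within 2-fold of genes of like length. With the *w1118* input as divisor, *scra* lay at −3.83 at 0–1 hr and −2.62 at 2–3 hr.

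PABP binding in *w1118* embryos was also low for most members. At 0–1 hr, 4 of 7 were at least 2-fold below the median gene, where 17.8% of 6086 genes were. The count was 5 at 1–2 hr (18.6%), 3 at 2–3 hr (15.9%), 2 at 3–4 hr (11.7%) and 1 at 4–5 hr (12.1%). The lowest at 0–1 hr was *scra* at −3.02, with 4.60 FPKM in the IP and 14.8 FPKM in the input, followed by *dia* (−2.45), *pnut* (−2.04) and *zip* (−1.58). Long transcripts were bound less by PABP too at 0–1 hr, with a Spearman correlation of −0.43 with length. Centred on genes of like length, *zip* was at −0.43, while *scra* (−2.25), *pnut* (−1.64) and *dia* (−1.61) stayed at least 2-fold below. *scra*, *dia*, *pnut* and *zip* were all nearer to the median gene at 4–5 hr, at −0.41, −0.40, −1.01 and −0.41 in that order. The correlation with length was weaker at that age, at −0.15. Centred on genes of like length, the same 4 were at −0.31, −0.29, −0.89 and −0.28, so *zip* lay close to its length-centred value of 0–1 hr. *sqh* had the highest value of the 7 at every age, beside *scra* (0.08) at 3–4 hr, and lay at 0.64, 0.48, 0.38, 0.09 and −0.14. The IPs of this light chain mRNA had 132, 141, 68.3, 142 and 157 FPKM by age. Those of the heavy chain *zip* had 3.35, 2.39, 7.62, 24.7 and 21.5 FPKM, and its binding was −1.58, −2.26, 0.00, −0.15 and −0.41. The *scra* IPs had 4.60, 7.46, 10.5, 32.5 and 34.5 FPKM, for a binding of −3.02, −2.63, −1.11, 0.08 and −0.41. *dia* IPs had 3.44, 3.31, 2.35, 6.91 and 7.62 FPKM, for −2.45, −2.20, −1.25, −0.78 and −0.40. *pnut* IPs had 13.6, 28.1, 29.0, 47.1 and 47.4 FPKM, for −2.04, −1.10, −0.72, −1.26 and −1.01. *scra* was thus highest at 3–4 hr, *dia* at 4–5 hr and *pnut* at 2–3 hr. *Act5C* stayed between −1.15 and −0.72 and *Act42A* between −1.19 and −0.50 at all 5 ages.

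The early PABP values depend on the *w1118* inputs that stood apart. With the *eGFP-ME31B* input of 0–1 hr as divisor, *scra* was at −0.96 and *zip* at −0.72, so that only *pnut* (−2.36) and *dia* (−2.22) stayed at least 2-fold below. *zip* at 2–3 hr was at 0.00 with its own input (7.62 FPKM in the IP and 22.1 FPKM in the input) and at 1.43 with the other. At 4–5 hr, *zip* was at −3.22 for ME31B and −0.41 for PABP, or at −1.68 and −0.28 when centred on genes of like length. The 2 IPs come from different strains and lysates, and the difference was not tested.

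**Figure D3:**
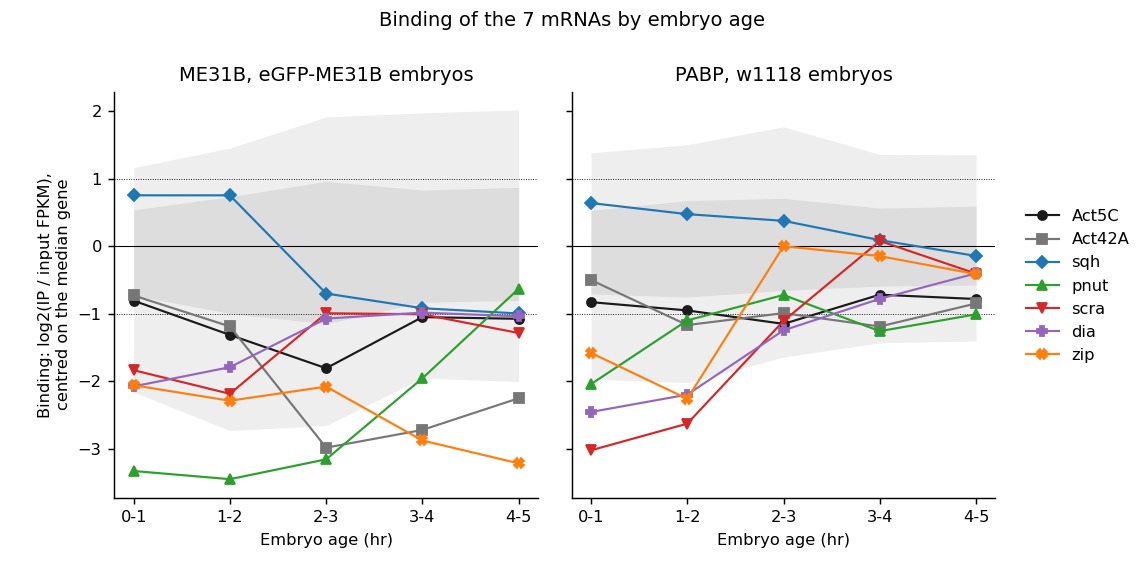
ME31B binding in *eGFP-ME31B* embryos and PABP binding in *w1118* embryos by age, as log2 of IP over input FPKM centred on the median gene (dark grey, between the quartiles of genes; light grey, 5th to 95th percentile; dotted lines, 2-fold). For ME31B, *pnut* is at −0.63 at 4–5 hr and *zip* ends at −3.22. For PABP, the members lie between −1.01 and −0.14 at 4–5 hr. No value in either panel is centred on genes of like length.

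In S2 cells ME31B binding was unlike that in embryos for *zip* and *scra*. *zip* had 1562 FPKM in the ME31B IP and 121 FPKM in its input, a binding of 3.79 (13.9-fold), and was the only member above *Act5C* (1182 FPKM) in any library. An estimated 0.963% of all reads of that IP came from *zip*. Anillin mRNA had 259 FPKM in the IP and 33.5 FPKM in the input, a binding of 3.05 (8.30-fold), which held rank 15 of 7309 genes, with *zip* at rank 2. These were the 2 members at least 2-fold above the median gene, where 8.11% of genes were. *dia* had 30.0 and 17.3 FPKM, a binding of 0.90 at percentile 89.5.

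The other 4 members lay slightly below the median gene. *pnut* was at −0.25 (42.2 FPKM in the IP and 53.6 FPKM in the input), *sqh* at −0.42 (182 and 261 FPKM), *Act42A* at −0.42 (829 and 1189.6 FPKM) and *Act5C* at −0.50 (1182 and 1792 FPKM). So the heavy chain was far above its own light chain in this IP, whereas both early embryo series had *sqh* above *zip*. Binding was higher for longer transcripts in these cells (Spearman correlation 0.63 across 7229 genes), whereas the correlation was between −0.59 and −0.16 in the ME31B IPs of *eGFP-ME31B* embryos. Among 339 genes with a median transcript of 6000 nt or more, the median binding was 1.14 and only 2, *zip* among them, reached its value or more. Centred on genes of like length, *zip* was at 2.81 and *scra* at 2.43, and *dia* at 0.22. With the untransfected S2 input as divisor, *zip* was at 4.12 and *scra* at 3.54.

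**Figure D4:**
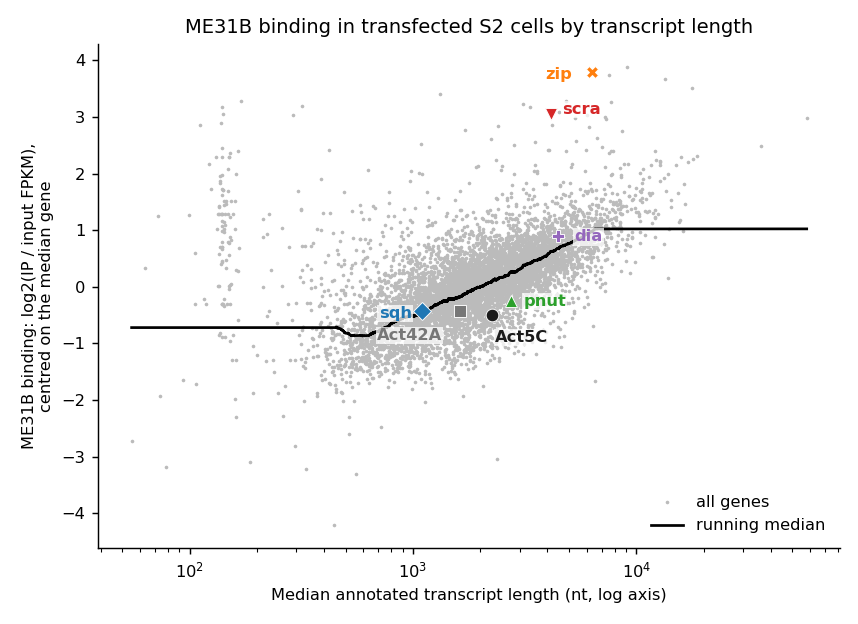
ME31B binding in transfected S2 cells (log2 of IP over input FPKM, centred on the median gene) against median annotated transcript length (log axis), with 1 grey point per gene and the running median as a line. *zip* (3.79) and *scra* (3.05) lie far above genes of like length, and *dia* (0.90) lies close to the line.

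PABP in S2 cells bound no member at least 2-fold less than the median gene, so the count was 0, where 9.69% of 7309 genes were. *zip* was lowest at −0.90 (32.0 FPKM in the IP and 82.7 FPKM in the input) and *dia* next at −0.85 (5.50 and 13.7 FPKM). The same 2 genes were among the higher 3 in the ME31B IP of S2 cells, but with length taken into account their PABP values were −0.02 for *zip* and −0.27 for *dia*. *sqh* was highest at 0.68 (307 and 265 FPKM), as in the early embryo. *Act42A* (−0.67), *scra* (−0.31), *Act5C* (−0.29) and *pnut* (0.27) lay between.

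In *eGFP-me31B;png50* embryos at 0–1 hr, 3 members were bound by ME31B at least 2-fold less than the median gene, where 14.8% of 6779 genes were. They were both actins and *zip*. Centred on genes of like length, where 8.07% of genes were that low, *zip* was at −0.64 and the actins stayed beyond 2-fold, at −2.73 (*Act42A*) and −2.29 (*Act5C*). *Act42A* had 26.8 FPKM in the IP and 113 FPKM in the input (−2.40), and *Act5C* 202 and 765 FPKM (−2.25). The *eGFP-ME31B* embryos of that age had −0.73 and −0.81 for these 2 actins. Conversely, 3 other members lay higher in *eGFP-me31B;png50* embryos, with *pnut* at −0.87 against −3.33, *dia* at −0.89 against −2.08 and *scra* at −0.35 against −1.84. *zip* (−2.31 against −2.06) and *sqh* (0.48 against 0.75) were closer between the strains. The *pnut* IP had 71.0 FPKM in *eGFP-me31B;png50* and 10.2 FPKM in *eGFP-ME31B* embryos, with inputs of 104 and 93.0 FPKM. The 2 tables were quantified separately, and the difference between the strains has no replicate.

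**Figure D5:**
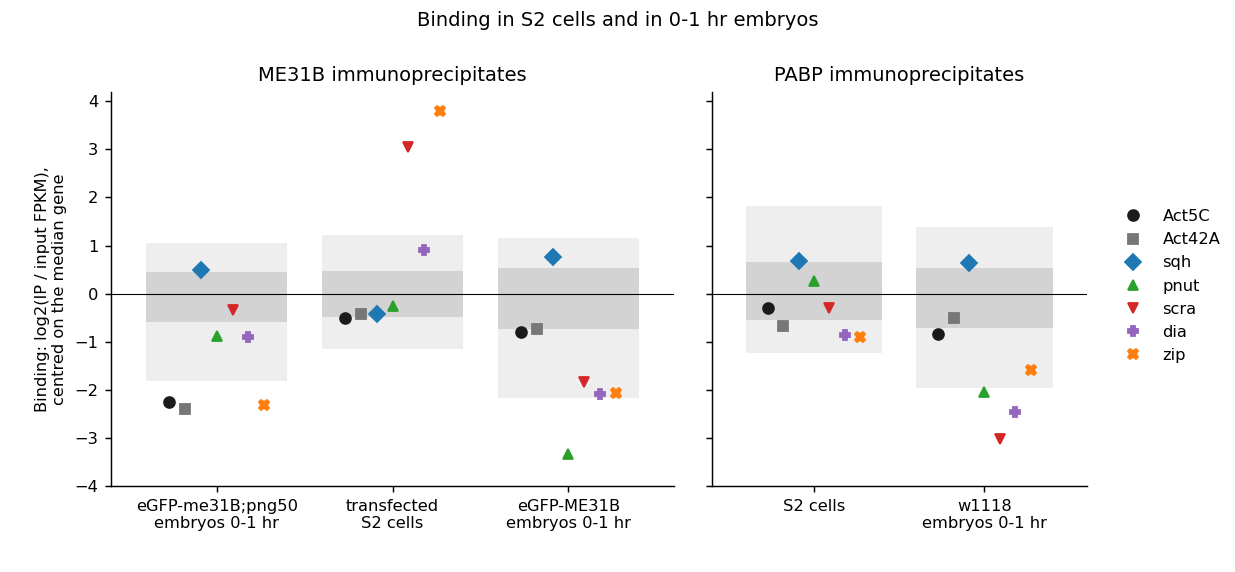
Binding of the 7 mRNAs (log2 of IP over input FPKM, centred on the median gene) by ME31B in *eGFP-me31B;png50* embryos, transfected S2 cells and *eGFP-ME31B* embryos, and by PABP in S2 cells and *w1118* embryos (dark grey boxes, between the quartiles of genes; light grey, 5th to 95th percentile). *zip* and *scra* stand at 3.79 and 3.05 in S2 cells and below the median gene in the other ME31B libraries.

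To place the 7 among other cytoskeletal genes, a list of 56 genes was read in the same comparisons: septins, other actins, myosins, cytokinesis regulators, nucleators, turnover factors and crosslinkers, and furrow membrane genes. Of these, 52 were listed, while the 4 septins were not analysed here. In transfected S2 cells, 17 of 44 list genes above the filter were at least 2-fold above the median gene for ME31B (38.6%, against 8.11% of all genes) and 0 below (7.8% of all genes), and the list median was 0.56. Centred on genes of like length, 7 were above, where 5.2% of all genes were, and the median was 0.18. The highest were *cher*, the fly filamin that crosslinks actin (3.74, with 766 FPKM in the IP and 61.4 FPKM in the input), the myosin VI gene *jar* (3.09) and the myosin VII gene *ck* (3.00). The lowest were the Arp2/3 subunits *Arpc4* (−0.96) and *Arpc5* (−0.96) and *tsr*, the cofilin that severs filaments (−0.86). For PABP in S2 cells, 4 of 44 were above and 6 below (9.09% and 13.6%, against 15.8% and 9.69% of all genes), with the profilin *chic* (1.42) and *Arpc1* (1.17) among the highest and *ck* (−1.87), the kinase *Rok* (−1.39) and *SCAR* (−1.37) lowest.

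At 0–1 hr, for ME31B in *eGFP-ME31B* embryos, 2 of 43 were at least 2-fold above and 12 below (4.65% and 27.9%, against 8.39% and 18.9% of all genes), with *sti*, the citron kinase (−4.31), *dah* (−3.89) and *cher* (−2.88) lowest and *tsr* (1.11), *Arpc5* (1.04) and *Arpc3A* (0.84) highest. For PABP in *w1118* embryos, 4 of 43 were above and 13 below (9.30% and 30.2%, against 10.4% and 17.8% of all genes), and *sti* (−3.60), *dah* (−3.21) and *cher* (−2.60) were again lowest, with *chic* (1.76) and *tsr* (1.21) among the highest. In *eGFP-me31B;png50* embryos, 0 of 44 were above and 13 below (29.5%, against 5.68% above and 14.8% below among all genes), and *Rok* (−2.26) and *cher* (−2.25) were lowest. The highest there were *Arpc3A* (0.85), *tsr* (0.75) and *Arpc2* (0.49). The list medians of −0.18, −0.06 and −0.44 in these 3 comparisons were nearer to the median gene than the members' medians of −1.84, −1.58 and −0.89. With genes of like length as the centre, the list medians were −0.04, 0.07 and −0.21. The middle members by value were then *scra* (−0.93), *Act5C* (−0.66) and *zip* (−0.64) in that order. Centred on genes of like length, 5 of 43 list genes were at least 2-fold below for ME31B in *eGFP-ME31B* embryos (12.4% of all genes). For PABP in *w1118* embryos 7 of 43 were (11.8%), and for ME31B in *eGFP-me31B;png50* embryos 3 of 44 (8.07%). At least 2-fold above were 0, 5 and 0 in that order, against 3.26%, 9.92% and 2.71% of all genes.

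From 0–1 to 4–5 hr, 9 of 49 list genes were at least 2-fold higher and 7 lower in *eGFP-ME31B* embryos, and 11 were higher and 17 lower in *w1118* embryos. The share that was higher, 18.4% in *eGFP-ME31B* and 22.4% in *w1118* embryos, was below the 30.8% and 32.5% of all genes. The share that was lower was 14.3% in *eGFP-ME31B* embryos (24.9% of all genes) and 34.7% in *w1118* embryos (29.3% of all genes). In *eGFP-ME31B* embryos the highest were *Act87E* (4.34), the muscle actin *Act57B* (4.16) and the muscle myosin heavy chain *Mhc* (3.73). The value of *Mhc* depends on the pseudocount, as it was at 0.160 FPKM in *eGFP-ME31B* and 0.159 FPKM in *w1118* embryos at 0–1 hr. *Mlc2* (6.58), *Mhc* (5.58) and *Act87E* (5.46) were highest in *w1118* embryos. The formin *capu*, which acts in oogenesis, was lowest in both strains (−4.06 in *eGFP-ME31B* and −3.98 in *w1118* embryos). In *png50* embryos of 2–3 hr, set against *w1118*, 8 of 49 list genes were at least 2-fold higher and 10 lower (16.3% and 20.4%, against 28.5% and 26.3% of all genes). The lowest were muscle genes at or near 0 in *png50*, so no fold is given: *Mlc1* was listed at 0 in *png50*, against 10.9 FPKM in *w1118*, *Mlc2* at 0.0457 against 16.0 FPKM and *Act57B* at 0.0607 against 15.6 FPKM. The highest were *SCAR* (3.05), *didum*, a myosin V (3.04), and *capu* (2.10). *Mlc2* was also low in *eGFP-ME31B* embryos of 2–3 hr, at 1.45 FPKM. From 0–1 to 2–3 hr in *png50* embryos, 0 of 44 were higher (3.16% of all genes) and 1 was lower (2.65% of all genes), the actin nucleator *spir* (−1.04).

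Over the 10 embryo inputs of *eGFP-ME31B* and *w1118*, the profiles of centred log2 level most like those of the members belonged to other genes than the members in each case, by Pearson correlation across 6774 genes. For *zip* they were *CG30428* (r = 0.993), *Sra-1* (0.991) and *CR43302* (0.991), and for *sqh* *CG7637* (0.996), *eIF4AIII* (0.995) and *Mcm7* (0.993). *Act5C* was nearest to *FK506-bp2* (0.984), *CG7154* (0.982) and *Myb* (0.978), and *Act42A* to *qkr58E-1* (0.997), *Gas41* (0.997) and *tweek* (0.996). *scra* lay nearest to *scrib* (0.995), *RpS13* (0.993) and *CtsB1* (0.992), *pnut* to *Df31* (0.992), *Fbxl7* (0.991) and *Fip1* (0.991), and *dia* to *CG8878* (0.911). Between members, *sqh* and *Act42A* were most alike (0.968) and *dia* and *scra* least (0.461). All points share the 10 libraries, of which 2 stood apart by their summed FPKM, so these values are descriptions.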

How the data were processed

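The authors sequenced rRNA-depleted, strand-specific libraries, aligned reads with STAR and quantified them with Cufflinks, and deposited 3 tables of FPKM. *C. elegans* RNA was added to samples, but the deposited FPKM are not scaled to it. The tables were used as deposited, and 0 columns matched no sample. FPKM is no count, so read numbers and counting error are estimates from the steps between low values. Groups came from the sample labels, with 1 library per condition, hence no test, SD or p-value. Changes in level are log2 of FPKM plus 0.1, over genes with at least 0.5 FPKM in 1 or more libraries, and binding is log2 of IP over input over genes exceeding 0.5 FPKM throughout a set of libraries. Both were centred on the median gene, and calls were at least 2-fold. Positions and transcript lengths came from Ensembl release 115, where 16608 of 16768 genes matched, and like length means a running median of 500 genes. Depth was 9.86 to 16.36 M estimated reads. Scripts were checked on simulated data. Members and lists were chosen with earlier results of these data known. Of the cytoskeletal list, the 3 highest and 3 lowest genes were named in the comparisons described, and for each member the 3 genes of most similar profile among those with at least 5 FPKM in 1 or more inputs of each strain (for *dia*, small nucleolar RNAs held ranks 2 and 3). Some genes that this rule would name are not reported here. Alternatives were other inputs, pseudocounts, filters, centring, worm scaling and baselines.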

Additional observations from a re-analysis of the deposited data

Results flagged for a closer look

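The change of *zip* from 0–1 to 2–3 hr was −1.01 in *png50* and 1.10 in *w1118* embryos, a difference of −2.12 log2 units in opposite directions. Scaled to worm RNA, both were negative, at −1.74 in *png50* and −0.094 in *w1118* embryos, so the opposite directions were lost. The *w1118* value also rests on the 0–1 hr input whose summed FPKM stood apart. The difference was not tested, as each age of each strain had 1 library.

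ME31B binding of *zip* was 3.79 in transfected S2 cells and −2.06 in *eGFP-ME31B* embryos at 0–1 hr, a difference of 5.85. For *scra* the values were 3.05 in transfected S2 cells and −1.84 in *eGFP-ME31B* embryos, a difference of 4.89. Both lie on opposite sides of the median gene and were not tested. Centred on genes of like length, *zip* was at 2.81 in S2 cells and −0.46 in embryos, and *scra* at 2.43 in S2 cells and −0.93 in embryos.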

How the results depend on the processing

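Of 994 member values under alternatives, 807 lay within 1.5-fold of the value given above, 177 did not, and 10 others changed sign after lying at least 2-fold from the median gene. Of 147 counts of members past 2-fold, 103 stayed within 1.5 times. For lower ME31B binding in *eGFP-ME31B* embryos, the count of 4 at 0–1 hr became 2 above 5 FPKM. *zip* and *scra* did not pass that filter, so they were not counted there. The counts of 5 at 3–4 and 4–5 hr became 3 with genes above 0 in the 2 libraries or without centring. In *w1118* PABP binding the counts of 4, 5, 3, 2 and 1 by age became 2, 2, 1 and 1 with the other input at the first 4 ages. Without centring they were 2, 0, 7, 4 and 3. Above 5 FPKM, a filter that *zip*, *scra* and *dia* did not pass, they were 2, 3 and 0 at 0–1, 1–2 and 4–5 hr. With genes above 0 they were 5 at 2–3 hr and 3 at 4–5 hr. A pseudocount of 1 gave 3 at 1–2 hr, and genes of like length 0 at 4–5 hr. The S2 PABP count of 0 became 1 with the other input and 3 without centring. For *eGFP-ME31B* levels, the count of 1 at 2–3 hr became 0 scaled to worm RNA, that of 3 at 3–4 hr became 1 with the 2–3 hr baseline, and that of 3 at 4–5 hr became 5 at 5 FPKM or more. For *png50* against *w1118* at 2–3 hr, 4 became 2 as deposited, scaled to worm RNA or with no filter, and the count of 1 within *png50* became 0 with a pseudocount of 1. For *w1118* levels at 2–3 hr, 2 became 7 as deposited, 0 with worm RNA, 6 with a pseudocount of 1 or no filter and 1 at 5 FPKM or more. At 3–4 hr, 3 became 7 as deposited, 1 with worm RNA and 0 with the 2–3 hr baseline. At 4–5 hr, 2 became 6 as deposited and 0 with worm RNA or the 2–3 hr baseline. The count became 4 with a pseudocount of 1, at 5 FPKM or more or with no filter. *zip* and *dia* did not pass the filter of 5 FPKM or more in *w1118* inputs.

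Signs changed with worm RNA in *w1118* embryos for *zip* (−0.094 at 2–3 hr and −0.017 at 4–5 hr) and *sqh* (−0.47 at 4–5 hr), with the 2–3 hr baseline for *pnut* at 3–4 hr (−0.00022), and with the other input for PABP binding of *scra* at 2–3 hr (0.70). Without centring, PABP binding at 1–2 hr was 0.48 for *zip*, 1.57 for *Act42A*, 0.11 for *scra*, 1.64 for *pnut* and 0.54 for *dia*. The causes were not tested. The 2–3 hr baseline and the binding filter on 2–3 to 4–5 hr were chosen after seeing the data. No paired analysis was possible because each condition had 1 library, and leaving out a replicate was not possible for the same reason.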
